A study of Triticum aestivum with 4 samples.

Results

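Transcript levels under heat were compared between genotypes in the flag leaves of field-grown spring bread wheat, the thermosusceptible line Line4 against the thermotolerant cultivar Misr2, after late sowing. The comparison used 2 of the 4 samples of the series, the stressed plants of each genotype, and all 8 measured genes, which came to 144 of 288 qPCR wells. The members were the wells of those 2 samples, taken by the sample titles, and the normal-sowing samples of the same genotypes served as the background. Each sample covered 3 replicate plants, with several leaves bulked for each, and each replicate was read in 3 wells of SYBR Green qPCR over 40 cycles.

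Misr2 has the pedigree SKAUZ/BAV92, and Line4 is a line from CIMMYT with the pedigree KINGBIRD#1//INQALAB91*2/TUKURU. Both genotypes were grown on the same farm at Giza, and the stressed plants were sown 57 days later than the normal date, so that anthesis met higher temperatures. Late sowing changes the whole season and not only the temperature, and sowing date and heat cannot be told apart. Leaves were taken around anthesis. The treatment label of 2 of the 4 samples went against the title: stressed Misr2 was labelled as unstressed, and normally sown Line4 as heat stressed. The stressed groups named here therefore rest on the titles. The panel holds no marker of leaf tissue, so the labelled organ could not be checked against expression. Bread wheat carries 3 related genomes, and a Ct value may combine transcripts of several copies of a gene.

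Heat unfolds proteins and raises reactive oxygen species in leaves. Cells answer with chaperones such as HSP70, which binds unfolded chains, and HSP90, which matures client proteins that include signaling components. Superoxide dismutase turns superoxide into hydrogen peroxide, and catalase breaks hydrogen peroxide down, chiefly in peroxisomes. Peroxisomes multiply by growth and fission: PEX11 proteins elongate the membrane, FIS1 proteins anchor in it, and dynamin-related proteins take part in the final scission. In Arabidopsis, DRP5B acts in the division of both chloroplasts and peroxisomes.

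The Ct value is the cycle at which fluorescence crosses a threshold, so a lower Ct means more template, and 1 cycle is a 2-fold difference at full amplification efficiency. Efficiency was not measured in the files, and all folds below assume it to be full. Differences are given as Line4 minus Misr2 on the log2 scale, so that a positive value means more template in Line4. Raw Ct is not corrected for the amount of cDNA, and unequal input between samples was not tested. A level given on raw Ct is therefore a level of template per well. Values are the mean ± SD of 3 replicates, and a gene was called where limma's adjusted p-value (Benjamini-Hochberg over the 8 genes) fell under 0.05. On raw Ct, 7 of 8 genes (87.5%) were called, with 4 higher and 3 lower in Line4. On ΔCt, which subtracts the Ct of Actin-7, 5 of 8 genes (62.5%) were called, with 3 higher and 2 lower.

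Wells of stressed Misr2 spanned 28.002 to 35.303 cycles and those of stressed Line4 26.028 to 35.741 cycles. The mean Ct over the 8 genes was 31.70 in Misr2 and 31.69 in Line4, a mean over genes that moved both ways. In each genotype 9 wells lay above 35 cycles, all of *TaPEX11.3* in Misr2 and all of *TaHSP90* in Line4. The median SD between replicates of a gene was 0.0932 cycles, and the SD expected of a mean of 3 wells from the scatter of the wells alone was 0.112 cycles. P-values therefore measure a spread that is no wider than that of the wells, and they say little about plant-to-plant variation.

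**Figure D1:**
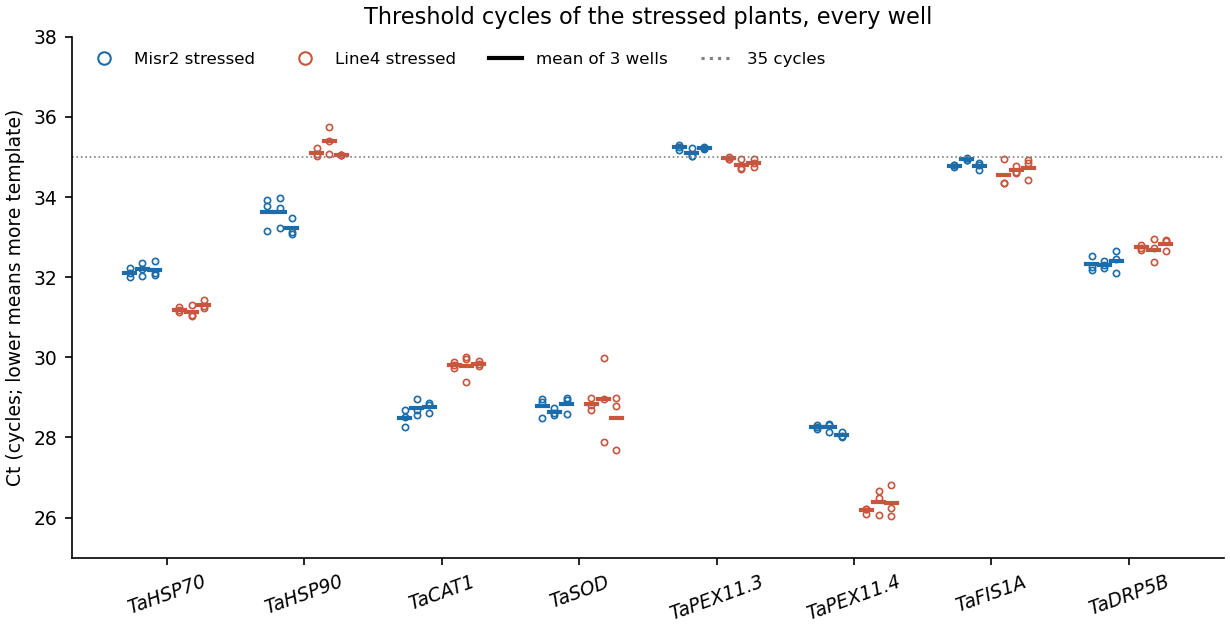
Threshold cycle (Ct, in cycles) of every well of the 8 genes in stressed Misr2 and stressed Line4. Open circles are wells, bars are means of 3 wells (replicates 1 to 3 from left to right), and the dotted line marks 35 cycles. Replicate means of *TaSOD* overlap between the genotypes, and *TaPEX11.4* lies near 28.2 cycles in Misr2 and 26.3 in Line4.

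The chaperone genes moved in opposite directions between the genotypes on raw Ct. *TaHSP70* crossed the threshold at 32.11, 32.19 and 32.19 cycles in the 3 Misr2 replicates and at 31.18, 31.12 and 31.30 in Line4. All Line4 replicates were earlier than all Misr2 replicates. The difference was 0.96 (SE 0.0760, adjusted p = 1.2e-09), a 1.94-fold higher level in Line4 with a 95% interval of 1.74 to 2.17. *TaHSP90* went the other way. Its Ct was 33.61, 33.63 and 33.22 cycles in Misr2 and 35.11, 35.41 and 35.06 in Line4. No replicate of Line4 reached the Misr2 range, and the difference was −1.70 (SE 0.104, adjusted p = 4.42e-11), a 3.25-fold lower level in Line4 (95% interval 2.79 to 3.79). In Line4 replicate 3 of *TaHSP90*, the 3 wells held 1 identical value of 35.0562 cycles.

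After subtraction of Actin-7 neither chaperone gene was called. The ΔCt of *TaHSP70* was −0.52 ± 0.0964 cycles in Misr2 and −0.55 ± 0.116 in Line4, with overlapping replicates. The log2 difference was 0.02 (95% interval −0.21 to 0.26, adjusted p = 0.844), so a difference as large as that on raw Ct lay outside its interval. For *TaHSP90* the ΔCt was 1.22 ± 0.277 cycles in Misr2 and 1.49 ± 0.0892 in Line4. These replicates did not overlap, but the difference of −0.27 (95% interval −0.55 to 0.01) missed the threshold at an adjusted p of 0.0827. That call depended on the setting. Without Misr2 replicate 3 the difference was −0.11 (adjusted p = 0.595), and with variances not moderated across genes the adjusted p was 0.261. It passed with the replicate block (adjusted p = 0.0259), in a fit of the stressed groups alone (adjusted p = 0.0495), without Misr2 replicate 1 (adjusted p = 0.0273), and without the wells that held repeated values (adjusted p = 0.0101). The last of these settings removed all of Line4 replicate 3.

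Of the antioxidant genes, *TaCAT1*, the catalase gene, was lower in Line4 on both readouts. Raw Ct was 28.49, 28.73 and 28.77 cycles in Misr2 and 29.81, 29.78 and 29.83 in Line4. The Line4 replicates fell within 0.1 cycle of each other and lay above every Misr2 replicate. On raw Ct the difference was −1.15 (SE 0.0899, adjusted p = 1.2e-09), a 2.22-fold lower level in Line4. On ΔCt it was −0.86 (SE 0.126, adjusted p = 1.18e-07), a 1.82-fold lower level with a 95% interval of 1.52 to 2.17.

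*TaSOD*, the superoxide dismutase gene, gave the widest gap between the readouts. Its raw Ct was 28.77, 28.63 and 28.84 cycles in Misr2 and 28.82, 28.95 and 28.48 in Line4. The genotypes overlapped, and the difference was 0.00 (95% interval −0.21 to 0.21, adjusted p = 0.977). The wells of Line4 were scattered, from 27.7 to 30.0 cycles, with a technical SD of 0.736 cycles against 0.196 in Misr2. On ΔCt the same wells gave −2.09 ± 0.00575 cycles in Misr2 and −6.12 ± 0.299 in Line4. The Misr2 SD was far below those of its parts, 0.106 cycles for Ct and 0.105 for the subtracted Actin-7 Ct. Single Misr2 wells spanned −2.35 to −1.75 cycles on ΔCt, so that SD is no measure of precision. The ΔCt difference was 4.03 (SE 0.126, adjusted p = 1.1e-25), a 16.3-fold higher level in Line4 (95% interval 13.6 to 19.5).

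The PEX11 genes, whose proteins elongate peroxisomes, were both higher in Line4 on raw Ct, by very different amounts. *TaPEX11.4* had Ct values of 28.25, 28.26 and 28.05 cycles in Misr2 and of 26.18, 26.40 and 26.36 in Line4. This was the largest difference of the panel on raw Ct, 1.88 (SE 0.0756, adjusted p = 1.09e-13), a 3.67-fold higher level in Line4 (95% interval 3.29 to 4.10). *TaPEX11.3* came up late in both genotypes, at 35.24, 35.09 and 35.22 cycles in Misr2 and 34.97, 34.79 and 34.85 in Line4. Its replicates did not overlap, and the difference was 0.32 (SE 0.0683, adjusted p = 0.000339), a 1.24-fold higher level in Line4. On ΔCt the order of the pair was turned. *TaPEX11.4* was then lower in Line4 by 1.45 on the log2 scale, from −5.96 ± 0.105 cycles in Misr2 to −4.51 ± 0.176 in Line4 (adjusted p = 5.7e-14), which is a 2.73-fold lower level. *TaPEX11.3* had a ΔCt of 2.35 ± 0.112 cycles in Misr2 and 2.32 ± 0.204 in Line4, a difference of 0.02 with overlapping replicates (95% interval −0.21 to 0.26, adjusted p = 0.844).

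The fission genes differed little between the genotypes on raw Ct. *TaFIS1A*, for the membrane anchor, had Ct values of 34.78, 34.94 and 34.77 cycles in Misr2 and 34.55, 34.66 and 34.73 in Line4. The replicates were separated by less than 0.05 cycles at their nearest points. The difference was 0.18 (SE 0.0719, adjusted p = 0.0249), and it was no longer called without Misr2 replicate 2 (adjusted p = 0.124) or without Line4 replicate 1 (adjusted p = 0.109), nor in a fit of the stressed groups alone (adjusted p = 0.0791). *TaDRP5B*, for the dynamin-related protein, had Ct values of 32.32, 32.31 and 32.41 cycles in Misr2 and 32.75, 32.69 and 32.83 in Line4. Every Line4 replicate was later, and the difference was −0.41 (SE 0.0638, adjusted p = 1.07e-05), a 1.33-fold lower level in Line4.

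On ΔCt both fission genes were higher in Line4. *TaFIS1A* fell from 3.26 ± 0.132 cycles in Misr2 to 1.76 ± 0.102 in Line4, a log2 difference of 1.498 (SE 0.113, adjusted p = 2.11e-14) or 2.82-fold. *TaDRP5B* went from 0.74 ± 0.122 cycles in Misr2 to −2.10 ± 0.0518 in Line4, a difference of 2.84 (SE 0.111, adjusted p = 5.94e-23) or 7.15-fold. Its direction was thus opposite to that on raw Ct.

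Across the panel, 3 of 8 genes had opposite signs on the readouts, *TaSOD*, *TaPEX11.4* and *TaDRP5B*. Of the 4 genes called on both, *TaCAT1* and *TaFIS1A* kept their direction, and *TaPEX11.4* and *TaDRP5B* did not. The gap between the readouts is the reference Ct, and its value in each well was recovered as Ct minus ΔCt. Actin is a cytoskeletal gene used here as the common reference, and a single reference Ct per sample would shift all 8 genes by 1 amount. Instead the subtracted Actin-7 Ct was a different value for each gene.

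In stressed Misr2 the mean subtracted Actin-7 Ct lay between 30.8 cycles for *TaSOD* and 34.1 for *TaPEX11.4*, and in stressed Line4 between 30.8 for *TaPEX11.4* and 34.9 for *TaSOD*. The extremes were thus held by the same genes in reverse order. All 8 of these Actin-7 values (100%) were called as different between the genotypes. The difference, Line4 minus Misr2, ran from −3.33 cycles for the values paired with *TaPEX11.4* to 4.03 for those paired with *TaSOD*, a range of 7.35 cycles against a median replicate SD of 0.0656. It was 3.25 cycles for *TaDRP5B*, 1.43 for *TaHSP90*, 1.32 for *TaFIS1A* and 0.286 for *TaCAT1*. For *TaHSP70* it was −0.935 and for *TaPEX11.3* −0.293, nearly the size of the shift of the target itself, so that these genes came out level on ΔCt. For *TaSOD* the whole ΔCt difference was carried by Actin-7. With 1 Actin-7 value shared by all genes of a replicate, their median, the ΔCt difference of *TaSOD* was 0.54 (adjusted p = 2.42e-05) in place of 4.03. Such a value moves the raw-Ct differences of all 8 genes by 1 amount. Results with it therefore repeat raw Ct plus that shift, and they are no separate reading of Actin-7. With that shared value both chaperone genes were called, *TaHSP70* at 1.502 (adjusted p = 3.71e-17) and *TaHSP90* at −1.16 (adjusted p = 2e-12), and *TaPEX11.4* was higher in Line4 at 2.42 (adjusted p = 1.2e-25). *TaPEX11.3* was then called at 0.86 (adjusted p = 4.42e-10), and *TaDRP5B* was not called at 0.13 (adjusted p = 0.230).

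**Figure D2:**
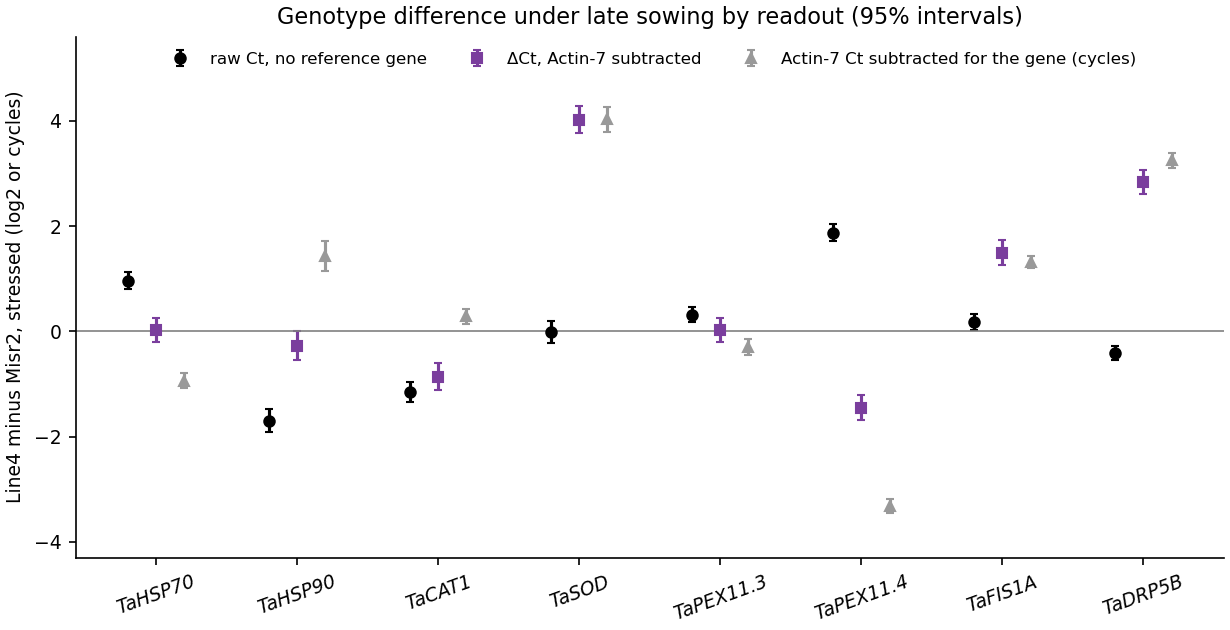
Line4 minus Misr2 in the stressed plants for each gene, on raw Ct and on ΔCt (both log2, positive for more template in Line4) and in the Actin-7 Ct subtracted for that gene (cycles), with 95% intervals of the limma fit. The Actin-7 values run from −3.33 to 4.03 cycles, and *TaPEX11.4* and *TaDRP5B* fall on opposite sides of 0 on the 2 readouts.

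Some wells held repeated values. Among the Actin-7 values paired with *TaSOD*, 4 of 9 wells in stressed Misr2 gave 30.9338 cycles and 4 of 9 wells in stressed Line4 gave 34.9338, the same decimals 4 cycles apart. For *TaHSP70*, 4 of 9 Line4 wells had an Actin-7 Ct of 31.6639, and 1 Misr2 well had 32.6639. In all, 27 of the 144 stressed wells repeated the decimals of another Actin-7 Ct of the same gene at either sowing date. Such wells also occurred for *TaHSP90*, *TaPEX11.3* and *TaFIS1A* in both genotypes and for *TaCAT1* in Line4. Repeats between genes were not counted, though 32.6206 cycles stood in 1 Misr2 well each of *TaHSP70* and *TaHSP90*. In the target wells, 2 pairs of *TaCAT1* and *TaDRP5B* wells shared their decimals in each genotype, 4 cycles apart in Misr2 and 3 in Line4, and 1 pair of *TaFIS1A* and *TaDRP5B* wells did so in Line4. Without the wells that repeated a target Ct or its decimals within 5e-05 cycles, *TaCAT1* differed by −1.10 and *TaDRP5B* by −0.42 on raw Ct. For ΔCt, wells that repeated the decimals of an Actin-7 Ct of the same gene were left out as well, and *TaSOD* still differed by 4.15. That removed all of replicate 3 of *TaSOD* in both genotypes, so the value rests on the other replicates. The origin of the repeats was not tested.

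Ct differences between genes of the same replicate need no reference gene, because anything that shifts all wells of a replicate alike drops out. This assumes that the 8 genes of a replicate were read from the same cDNA, which was not tested. The mean Actin-7 Ct subtracted differed by gene, from 30.8 to 34.1 cycles in stressed Misr2 and 30.8 to 34.9 in stressed Line4. The median replicate SD of these Actin-7 values was 0.0656 cycles. If the genes were read from different cDNA, unequal input would not drop out of the Ct differences. Replicates were matched across genes by well position, an order that the labels do not give. The 8 genes form 28 pairs, of which 7 differences are independent. Of the 28 pairs, 26 (92.9%) were called between the genotypes, 11 higher and 15 lower in Line4 in the order of the panel, with p-values adjusted over the 28 pairs. Replicates of the 2 genotypes did not overlap in 26 pairs. Variances were moderated across the 28 pairs, which share the 8 genes and are not independent. With variances not moderated, 26 pairs were still called. The adjusted p was then 1.2e-06 for *TaHSP70* over *TaHSP90* and 1.3e-04 for *TaCAT1* over *TaSOD*, larger than the moderated values below. The largest shift was in *TaHSP90* over *TaPEX11.4*, where the Ct difference went from 5.30 ± 0.114 cycles in Misr2 to 8.88 ± 0.163 in Line4. That ratio was 11.9-fold lower in Line4 (log2 difference −3.58, SE 0.114, adjusted p = 6.06e-23).

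Within the chaperones, the Ct of *TaHSP70* minus that of *TaHSP90* was −1.33 ± 0.254 cycles in Misr2 and −3.99 ± 0.271 in Line4. The *TaHSP70* to *TaHSP90* ratio was thus 6.32-fold higher in Line4 (log2 difference 2.66, SE 0.136, adjusted p = 1.01e-17), and it ranked 3 of the 28 by size. This ratio and that of *TaHSP90* over *TaPEX11.4* rest on Line4 wells of *TaHSP90* that all lay above 35 cycles. Ratios with *TaPEX11.3*, given below, likewise rest on Misr2 wells of *TaPEX11.3* that all lay above 35 cycles. Within the antioxidant genes, *TaCAT1* over *TaSOD* was 2.21-fold lower in Line4 (−1.14, SE 0.132, adjusted p = 2.01e-09). Among the peroxisome genes the shift was toward *TaPEX11.4*: *TaPEX11.3* over *TaPEX11.4* was 2.95-fold lower in Line4 (−1.56, SE 0.119, adjusted p = 1.86e-13). *TaFIS1A* over *TaDRP5B* was 1.51-fold higher (0.59, SE 0.111, adjusted p = 1.05e-05).

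*TaCAT1* and *TaPEX11.4*, an enzyme of the peroxisome interior and a gene of its proliferation, also parted widely. Their ratio was 8.13-fold lower in Line4 (−3.02, SE 0.122, adjusted p = 2.44e-20). At the other end, 2 pairs were not called. *TaPEX11.3* over *TaFIS1A* differed by 0.13 (95% interval −0.10 to 0.37, adjusted p = 0.256), and *TaSOD* over *TaFIS1A* by −0.18 (95% interval −0.45 to 0.08, adjusted p = 0.167). The latter was called without Misr2 replicate 3 (adjusted p = 0.0436) or Line4 replicate 3 (adjusted p = 0.0053). *TaSOD* over *TaPEX11.3* was called at −0.32 (adjusted p = 0.0119) but not without Line4 replicate 2 (−0.18, adjusted p = 0.155). Computed from ΔCt instead, 16 of the 28 pairs took the opposite sign, among them *TaPEX11.3* over *TaPEX11.4* at 1.47 and *TaFIS1A* over *TaDRP5B* at −1.34. *TaHSP70* over *TaHSP90* kept its direction on ΔCt, at 0.29, and so did *TaCAT1* over *TaSOD*, at −4.89.

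**Figure D3:**
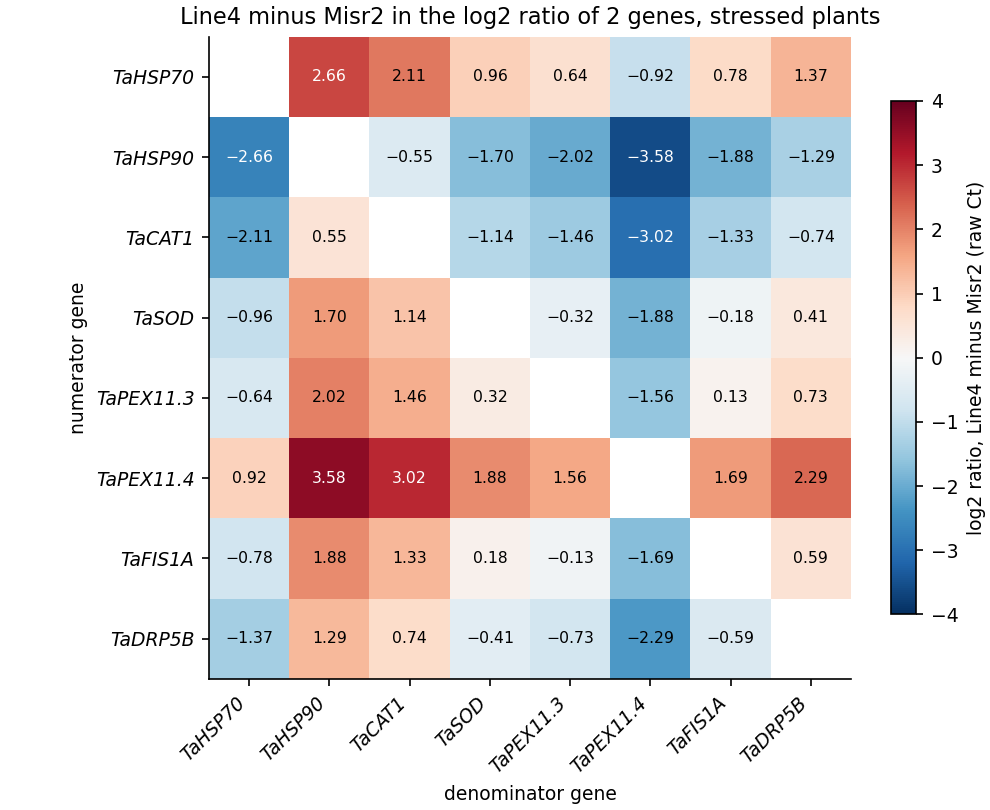
Line4 minus Misr2 in the log2 ratio of each row gene to each column gene, from raw Ct of the stressed plants. Red marks a higher ratio in Line4 and blue a lower one, and the row of *TaPEX11.4* is red throughout while the row of *TaHSP90* is blue throughout.

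The genotypes already differed under normal sowing, which is the background for these values. On raw Ct 7 of 8 genes (87.5%) were called there, with 1 higher and 6 lower in Line4, and on ΔCt 8 of 8 (100%), with 5 higher and 3 lower. All 8 subtracted Actin-7 values were called as later in Line4 there, by 0.20 to 4.41 cycles, against 5 of 8 under late sowing. On raw Ct the mean absolute genotype difference was 2.02 under normal sowing and 0.824 under late sowing, and it was smaller under late sowing in 5 of 8 genes. A shift of all genes alike, such as from unequal template input, would enter both means and was not tested. On ΔCt the corresponding means were 1.33 and 1.37, and 3 of 8 genes had the smaller difference under late sowing. Pairs of genes gave 25 of 28 calls (89.3%) under normal sowing.

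The difference between the sowing dates was tested as an interaction, the genotype difference under late sowing minus that under normal sowing. On raw Ct it was called in 7 of 8 genes (87.5%), and in all 7 Line4 stood higher relative to Misr2 under late sowing. Unequal template input between the samples would enter these raw-Ct values for all genes, and it was not tested. *TaCAT1* went from −4.98 to −1.15 (interaction 3.83, SE 0.127, adjusted p = 2.28e-15) and *TaFIS1A* from −3.34 to 0.18 (interaction 3.52, SE 0.102, adjusted p = 4.69e-16). *TaPEX11.4* went from −0.07, which was not called (adjusted p = 0.339), to 1.88 (interaction 1.95, SE 0.107, adjusted p = 3.85e-12). *TaHSP90* was the gene not called, at −1.45 under normal and −1.70 under late sowing (interaction −0.25, SE 0.147, adjusted p = 0.105).

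On ΔCt the interaction was called in 7 of 8 genes (87.5%), but only 3 of them rose relative to Misr2 and 4 fell. *TaDRP5B* went from −1.81 to 2.84 (interaction 4.65, SE 0.157, adjusted p = 1.07e-24) and *TaSOD* from −0.35 to 4.03 (interaction 4.37, SE 0.179, adjusted p = 2.64e-22). *TaHSP90* went from 2.91 to −0.27 (interaction −3.18, SE 0.198, adjusted p = 6.63e-17). The gene not called was *TaCAT1*, at −0.57 and −0.86 (interaction −0.29, SE 0.178, adjusted p = 0.111). The pairs derive from the same raw Ct values, and they need no reference only if the genes of a replicate shared 1 cDNA. Among them the interaction was called in 25 of 28 (89.3%). For *TaHSP70* over *TaHSP90* it was 0.83 (SE 0.192, adjusted p = 0.000212), from 1.83 under normal to 2.66 under late sowing.

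**Figure D4:**
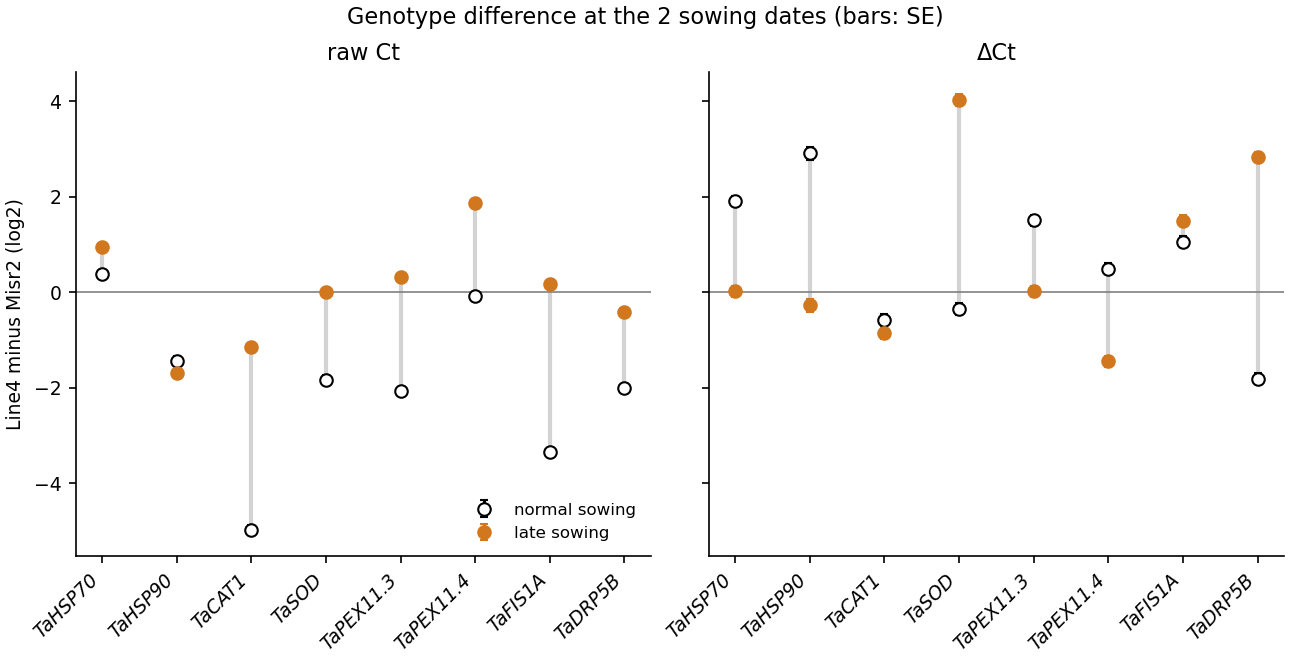
Line4 minus Misr2 (log2) for each gene under normal sowing (open circles) and late sowing (filled circles), on raw Ct at left and ΔCt at right, with SE bars of the limma fit that are mostly smaller than the symbols. On raw Ct the late-sowing value lies above the normal-sowing value in 7 of 8 genes, and *TaHSP90* is the exception.

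Per gene, an exact two-sided permutation test of 3 against 3 replicates cannot go below p = 0.1 over its 20 arrangements. On raw Ct that smallest value was reached by the 7 genes whose replicates did not overlap, and on ΔCt by 6 genes, *TaHSP90* included.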

How the data were processed

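Target-gene Ct values (cycles, not normalized) were used as deposited. A table of fold ratios that the authors computed was also deposited and was not used. ΔCt values, with the Actin-7 Ct subtracted by the authors, were read from the supplementary workbook, whose Ct copy matched the deposited values within 5e-05 cycles, and no separate Actin-7 Ct was used here. Successive sets of 3 wells were averaged into 3 replicates of a group, an order that the labels do not give. Values of all 4 groups were fitted with limma 3.58.1 in R 4.3.3 on −Ct, −ΔCt, the subtracted Actin-7 Ct and the Ct differences of 28 gene pairs, with 1 mean per group and moderated variances. P-values were adjusted by Benjamini-Hochberg over the 8 genes or 28 pairs of a contrast, with a threshold of 0.05. The two-way test of the study's methods was replaced by this fit. Tables were made with Python 3.11.15, numpy 2.4.6, pandas 2.3.3, scipy 1.17.1 and matplotlib 3.10.9.

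All 8 genes are named, as are the pairs within a gene group and the pairs with the largest and smallest shifts. Members, gene groups and tests were chosen with earlier results of these data known. On simulated panels of 8 genes built on this comparison on raw Ct, 9 of 200 unchanged values were called (4.5%), and 153 of 200 with a log2 difference of 0.25, 199 of 200 with 0.5 and 200 of 200 with 1. The panels drew independent noise for each gene at the observed replicate SD. They held no wider plant-to-plant variation and no input shift shared by genes, so the rates do not cover those. qPCR gives no read depth, and the technical SD of the wells stands in for it. The alternatives were other ways of joining wells, other spreads and blocks, other references, leaving out late wells or each replicate, and, chosen after seeing the data, leaving out wells with repeated values. All 9 of the 9 transcripts listed for the primers were found in the RefSeq gene table of IWGSC CS RefSeq v2.1, and no coordinates or sequences are given because the files name no genome build.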

Additional observations from a re-analysis of the deposited data

Results flagged for a closer look

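The genotype difference changed between normal and late sowing by the limma test of that change in 14 of the 16 tests run (8 genes on 2 readouts), each given as the log2 difference of Line4 minus Misr2 under late sowing less that under normal sowing.

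On raw Ct, which is not corrected for template input, the values were 0.57 for *TaHSP70*, 3.83 for *TaCAT1*, 1.83 for *TaSOD*, 2.39 for *TaPEX11.3*, 1.95 for *TaPEX11.4*, 3.52 for *TaFIS1A* and 1.60 for *TaDRP5B*, all toward Line4. On ΔCt they were −1.89 for *TaHSP70*, −3.18 for *TaHSP90*, 4.37 for *TaSOD*, −1.48 for *TaPEX11.3*, −1.95 for *TaPEX11.4*, 0.44 for *TaFIS1A* and 4.65 for *TaDRP5B*. Of the 6 genes on both lists, *TaSOD*, *TaFIS1A* and *TaDRP5B* moved toward Line4 on both readouts, and *TaHSP70*, *TaPEX11.3* and *TaPEX11.4* moved in opposite directions. No group of replicates was large enough to look for a single distant sample.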

How the results depend on the processing

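The reference decided most of what changed. On ΔCt, with 1 shared Actin-7 value for all genes of a replicate, their median, 5 genes rather than 3 were called higher in Line4, *TaPEX11.4* turned to 2.42, *TaSOD* fell to 0.54, *TaFIS1A* was 0.72, *TaCAT1* −0.61 and *TaDRP5B* 0.13 (adjusted p = 0.230), and *TaHSP70* (1.502), *TaHSP90* (−1.16) and *TaPEX11.3* (0.86) gained a call. When the panel mean of all 8 targets served as reference, *TaSOD* was −0.0117, *TaPEX11.4* 1.87 and *TaDRP5B* −0.42, and with no reference they were −0.00294, 1.88 and −0.41. Each of these alternatives treats all genes alike, so it repeats the raw-Ct differences up to 1 shift common to all genes. Values near 0 crossed it: *TaHSP70* on ΔCt was −0.0236 with the median of wells and −0.0350 to 0.0807 with a replicate left out, *TaPEX11.3* on ΔCt was −0.0496 with the median of wells, −0.0145 without repeated wells and −0.0455 to 0.14 with a replicate left out, and *TaSOD* on raw Ct was −0.14 to 0.0947 with a replicate left out. Without wells above 35 cycles *TaHSP90* and *TaPEX11.3* could not be compared, and 14 of the 15 remaining pairs were called. The replicate block, which pairs replicates only by well position since the labels give no replicate numbers, left 7 genes called on raw Ct, 26 pairs, and 6 genes on ΔCt, where *TaHSP90* was added (−0.27, adjusted p = 0.0259). *TaSOD* over *TaPEX11.3* lost its call with wells as replicates (adjusted p = 0.0929) and in a fit of the stressed groups alone (0.0505). Of all gene values under alternatives, 112 of 118 on raw Ct, 105 of 134 on ΔCt and 125 of 130 for the named pairs kept their direction and their side of the threshold. Several alternatives change only the spread and not the estimate: other groupings of the wells, other variances, the replicate block and the fit of the stressed groups alone. The same holds for leaving out late wells, among the genes that could still be compared. Without repeated wells, the raw-Ct estimates of *TaHSP70*, *TaSOD*, *TaPEX11.3* and *TaPEX11.4* did not move either. Direction could not change in these cases, so the tally overstates how well direction was tried. Well scatter was widest for *TaSOD* in Line4 (technical SD 0.736 cycles) and for *TaHSP90* in Misr2 (0.349), which limits those values most, and amplification efficiency was not measured.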
